A study of Mus musculus with 12 samples.

Results

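Guanylate-binding proteins are large GTPases, relatives of the dynamins, that cells make in quantity when interferons, above all interferon gamma, act on them. They gather on the vacuoles and surfaces of bacteria and protozoa inside the cell, help to break those vacuoles open, and feed bacterial products to inflammasomes. In the gut they are known as part of the defence of epithelial cells and macrophages against invading microbes, and mouse genes of the family lie in 2 gene clusters. The list examined here held 8 of these genes, Gbp2 to Gbp9, chosen by symbol and by the probe with the highest mean over all arrays. Of the 8 genes, 6 had a named probe (Gbp2, Gbp3, Gbp4, Gbp7, Gbp8 and Gbp9), each with 1 probe, among 19505 named genes and 22206 probes in all. Gbp5 and Gbp6 bore no named probe and were not analysed here. Only the mean level over all arrays entered the choice of probe, and the family was taken up with earlier results of these data known, so its values describe these arrays.

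The arrays measured total RNA of colon from healthy male mice, 12 to 16 weeks old and kept under a 14 h light cycle, with 3 arrays for each of 4 genotypes. The genotypes were wild type, LAO1 knockout, IL4i1 knockout and double knockout (DKO), the last without either gene. Both genes code for oxidases of L-amino acids, which yield keto acids and hydrogen peroxide. The labels name no agent, and the strain and the build of the alleles are not given in the sources used here. Per the labels' protocols, 4 mice were chosen per genotype, and whether 1 array held 1 mouse is not stated, so the p-values cover only the spread among these arrays, part or all of which may be technical. The study set out to explore colonic inflammation in mice without both oxidases.

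Any pair of arrays correlated at 0.964 to 0.99 over all probes, and no 2 arrays shared more than 1.17% of their values. The Lao1 probe lay between 2.64 and 3.56 on all arrays and no probe was named Il4i1, so these data did not check the genotypes, which rest on the labels. All 10 measured colon epithelium markers gave signal, with a list mean of 14.91 to 16.67 on every array. IL4i1 knockout replicate 2, DKO replicate 1 and DKO replicate 2 stood farthest out on the first, the second and the third principal component. The mean of 9 pancreatic acinar genes reached 15.82 on 1 DKO array, where Cpa1, a pancreatic carboxypeptidase, stood at 18.12 in replicate 2 against 4.21 to 5.48 elsewhere. Family results that change without 1 of these arrays are given with their values without it. Calls of single genes outside the family were not checked in this way.

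The 3 measured genes on chromosome 3 (Gbp7, Gbp3 and Gbp2 in RefSeq order) had promoter entries in the RefSeq table of assembly GRCm38.p6, and the 3 on chromosome 5 had none. The sequences are shown because interferons act on this family through 2 kinds of promoter element. One is the interferon-stimulated response element, searched as GAAA, any 2 bases and GAAA, and the other the gamma-activated site, searched as TTC, any 3 bases and GAA, each on either strand. Each window runs from 250 bases before to 50 bases after an annotated start on the plus strand, and capitals mark every match. Gbp3 has 2 annotated starts, and the window of the one farther upstream is shown.
Gbp2, chr3:142620413-142620712: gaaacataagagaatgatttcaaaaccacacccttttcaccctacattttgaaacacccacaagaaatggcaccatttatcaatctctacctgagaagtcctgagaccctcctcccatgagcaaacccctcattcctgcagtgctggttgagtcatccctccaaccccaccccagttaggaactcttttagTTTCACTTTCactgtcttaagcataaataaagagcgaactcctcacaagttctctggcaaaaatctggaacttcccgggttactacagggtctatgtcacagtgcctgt
Gbp3, chr3:142559794-142560093: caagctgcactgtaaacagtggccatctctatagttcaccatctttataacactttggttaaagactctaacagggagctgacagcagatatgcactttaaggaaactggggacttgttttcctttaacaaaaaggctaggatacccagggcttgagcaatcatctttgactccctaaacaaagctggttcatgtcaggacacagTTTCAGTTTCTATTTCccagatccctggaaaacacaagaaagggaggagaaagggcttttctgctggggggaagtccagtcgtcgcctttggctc
Gbp7, chr3:142530086-142530385: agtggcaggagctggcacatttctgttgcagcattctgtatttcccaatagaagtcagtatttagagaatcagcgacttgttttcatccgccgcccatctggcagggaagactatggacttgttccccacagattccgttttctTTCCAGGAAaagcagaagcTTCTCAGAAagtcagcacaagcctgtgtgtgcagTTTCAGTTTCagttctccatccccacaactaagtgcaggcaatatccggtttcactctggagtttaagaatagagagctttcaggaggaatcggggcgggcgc

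All 3 windows held the response element on the minus strand, at 59 bases before the start in Gbp2 (TTTCACTTTC), 45 in Gbp3 (TTTCAGTTTC) and 53 in Gbp7 (TTTCAGTTTC). In Gbp3 another match (TTTCTATTTC) overlapped the first, at 39 bases before the start. Gbp7 also held the gamma-activated letters at 106 (TTCCAGGAA) and 87 (TTCTCAGAA) bases before the start. Of 32544 different RefSeq promoter windows of this length, 3.45% held the response element letters and 8.33% the gamma-activated letters. The other Gbp3 window, chr3:142560106-142560405, held neither. These matches describe letters, not bound sites.

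In colon, the family stood highest in the DKO. All 3 DKO arrays lay above all 9 other arrays for 6 of the 6 measured genes, a pattern that 1.04% of all 22206 probes showed. For 5 of the 6 genes the order of genotype means ran from IL4i1 knockout to LAO1 knockout, wild type and DKO. In Gbp2 the single knockouts changed places, by less than their spread. Values are log2 expression of 1 probe and are compared between arrays, not between genes. In whole tissue, a change in the number of cells that express a gene and a change in RNA per cell cannot be told apart.

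**Figure D1:**
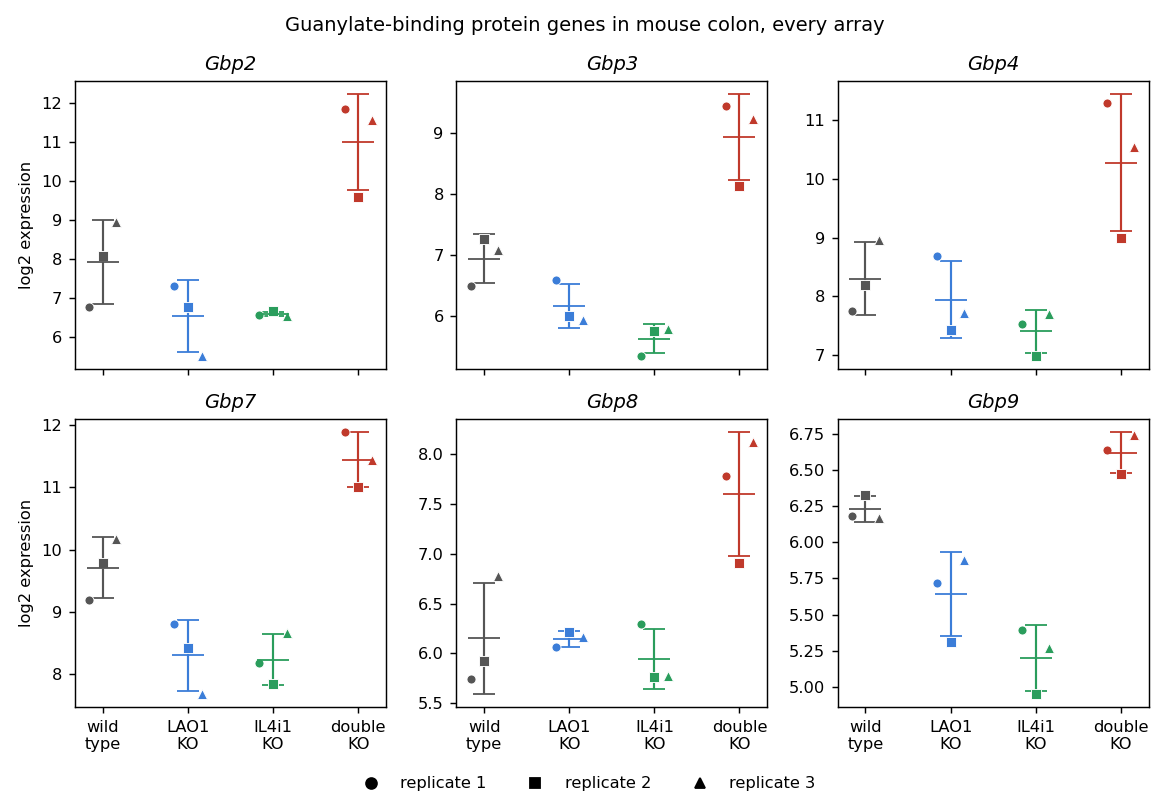
Log2 expression of the 6 measured genes (vertical axes, which start above 0 and differ between panels) on every array, by genotype; symbols give replicate numbers, and the lines give the mean and SD of 3 arrays. In each panel the 3 DKO arrays lie above the other 9, and DKO replicate 2 is the lowest of the 3.

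Gbp2 encodes a lipid-anchored member that is recruited to the vacuole of Toxoplasma and to bacteria. It was at 6.79, 8.07 and 8.94 in wild type, at 7.32, 6.77 and 5.53 in the LAO1 knockout, at 6.57, 6.67 and 6.55 in the IL4i1 knockout, and at 11.84, 9.6 and 11.55 in the DKO. Wild type arrays varied widely (SD 1.08) and IL4i1 knockout arrays little (SD 0.06). The LAO1 knockout overlapped wild type, the IL4i1 knockout lay below it, and the DKO lay clear of all. Gbp3, its neighbour in the same cluster, was at 6.49, 7.26 and 7.08 in wild type, at 6.59, 6.0 and 5.93 in the LAO1 knockout, at 5.35, 5.75 and 5.79 in the IL4i1 knockout, and at 9.44, 8.14 and 9.23 in the DKO. Here too the LAO1 knockout overlapped wild type while the IL4i1 knockout lay below both.

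Gbp7, known for its part in assembling the phagocyte NADPH oxidase, was at 9.19, 9.78 and 10.17 in wild type. It was at 8.8, 8.42 and 7.68 in the LAO1 knockout, at 8.18, 7.84 and 8.66 in the IL4i1 knockout, and at 11.88, 11 and 11.43 in the DKO. Both single knockouts lay below wild type on every array. Gbp4, a member of the chromosome 5 cluster, was at 7.74, 8.19 and 8.96 in wild type, at 8.68, 7.42 and 7.71 in the LAO1 knockout, at 7.53, 6.98 and 7.69 in the IL4i1 knockout, and at 11.3, 9.0 and 10.55 in the DKO. LAO1 knockout replicate 1 lay among the wild type arrays, and the lowest DKO array lay only just above wild type replicate 3.

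The remaining genes, Gbp8 and Gbp9, had narrower ranges, 2.38 and 1.79 over the 12 arrays against 4.09 to 6.31 for the other 4. Gbp8 was at 5.74, 5.92 and 6.78 in wild type, at 6.06, 6.21 and 6.16 in the LAO1 knockout, at 6.29, 5.76 and 5.77 in the IL4i1 knockout, and at 7.78, 6.91 and 8.12 in the DKO. Both single knockouts lay within the span of the wild type arrays, and the DKO lay above it. Gbp9 was at 6.18, 6.33 and 6.17 in wild type, at 5.72, 5.31 and 5.88 in the LAO1 knockout, at 5.39, 4.95 and 5.27 in the IL4i1 knockout, and at 6.64, 6.47 and 6.74 in the DKO. For Gbp9 both single knockouts lay below wild type, and the DKO lay above it by a small step.

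The first comparison asked what loss of both oxidases did against wild type. Gbp2 was at 11 ± 1.22 in the DKO and 7.93 ± 1.08 in wild type (SD, n = 3), a log2 difference of 3.06 (SE 0.61, adjusted p = 0.229). Differences of the others were 1.99 for Gbp3 (SE 0.33, adjusted p = 0.0744), 1.99 for Gbp4 (SE 0.51, adjusted p = 0.387), 1.72 for Gbp7 (SE 0.34, adjusted p = 0.229), 1.46 for Gbp8 (SE 0.32, adjusted p = 0.271) and 0.39 for Gbp9 (SE 0.2, adjusted p = 0.726). The family median was 1.86, beside 0.0 over all probes. In limma's test adjusted over all probes 0 of 6 genes passed 0.05, beside 0.0225% of all probes in either direction. At an unadjusted p under 0.05, 5 of 6 stood higher, against 3.63% of all probes, and for 6 of 6 the DKO arrays lay above those of wild type, against 5.68%. The array with high acinar transcripts changed the count, and the part of those transcripts was not tested. Without DKO replicate 2, Gbp2 (3.76, adjusted p = 0.0234), Gbp3 (2.39, 0.00884), Gbp4 (2.63, 0.0341) and Gbp8 (1.8, 0.04) passed, and without any other array of this comparison 0 did. Gbp3 also passed with the trend and robust options of limma's eBayes (adjusted p = 0.0381).

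**Figure D2:**
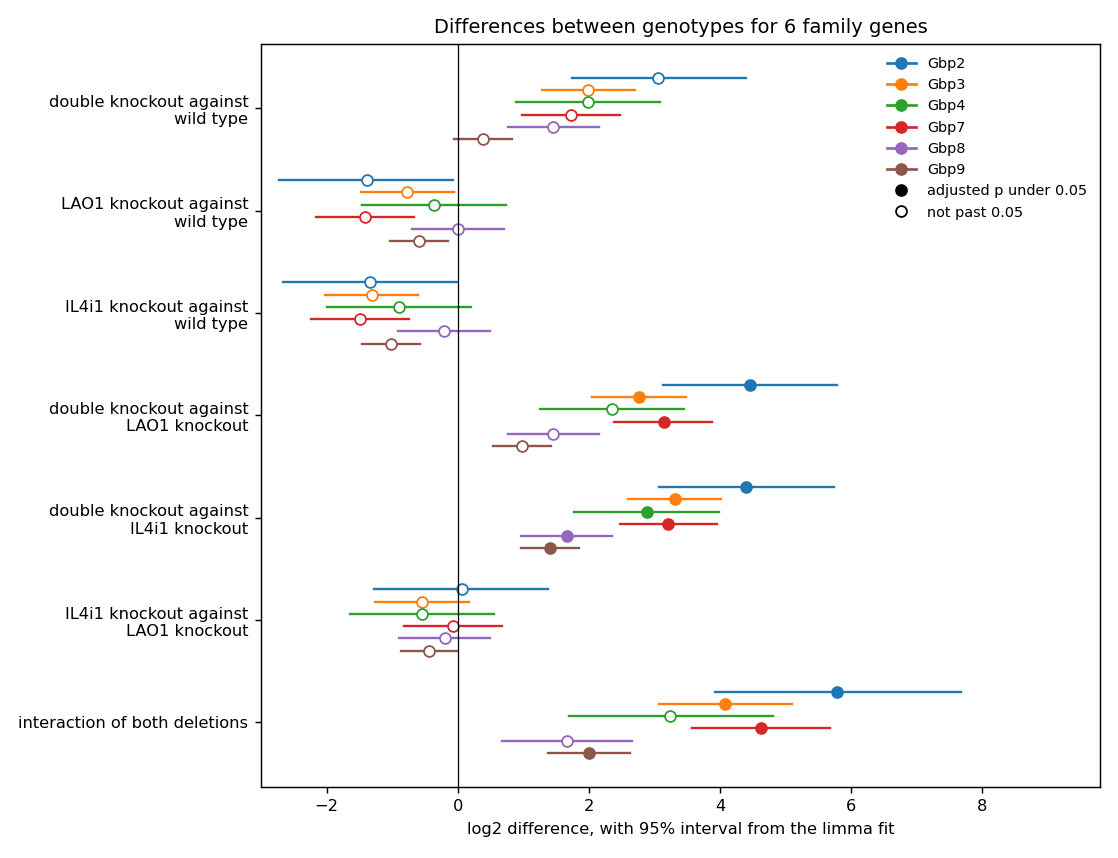
Log2 differences (horizontal axis) of the 6 genes in 7 comparisons, with 95% intervals from the limma fit over 12 arrays; filled points passed an adjusted p of 0.05 over all probes. Filled points number 3 for the DKO against the LAO1 knockout, 6 for the DKO against the IL4i1 knockout and 4 for the interaction.

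Against the LAO1 knockout, which shares the loss of LAO1 with the DKO, 3 genes passed the adjusted threshold as higher in the DKO. Gbp2 rose 22.0-fold (log2 4.46, SE 0.61, adjusted p = 0.00867), Gbp7 8.79-fold (3.14, SE 0.34, adjusted p = 0.0041) and Gbp3 6.79-fold (2.76, SE 0.33, adjusted p = 0.0041). All 3 lie in the chromosome 3 cluster. The chromosome 5 genes did not pass, with Gbp4 at 2.35 (adjusted p = 0.146), Gbp8 at 1.46 (0.166) and Gbp9 at 0.98 (0.115). The share called was 3 of 6, against 0.122% of all probes called higher. At an unadjusted p under 0.05, 6 of 6 stood higher, those of chromosome 5 included, against 3.51% of all probes. Gbp2 did not pass without LAO1 knockout replicate 3 (adjusted p = 0.0635), DKO replicate 1 (0.0508) or DKO replicate 3 (0.068), and without DKO replicate 2 Gbp4 (0.0078) and Gbp8 (0.0271) passed too. Gbp3 and Gbp7 passed whichever array was left out.

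Against the IL4i1 knockout, which shares the loss of IL4i1 with the DKO, 6 of the 6 genes rose in the DKO, beside 0.387% of all probes called higher. Gbp2 rose 21.1-fold (log2 4.4, SE 0.61, adjusted p = 0.00513), Gbp3 9.89-fold (3.31, SE 0.33, adjusted p = 0.000701), Gbp7 9.25-fold (3.21, SE 0.34, adjusted p = 0.000882) and Gbp4 7.38-fold (2.88, SE 0.51, adjusted p = 0.0248). Gbp8 rose 3.17-fold (1.66, SE 0.32, adjusted p = 0.0432) and Gbp9 2.66-fold (1.41, SE 0.2, adjusted p = 0.00644). The 3 comparisons of the DKO share its arrays, so their calls are not independent of each other. The calls of Gbp4 and Gbp8 ended without any 1 of IL4i1 knockout replicates 1, 2 and 3 and DKO replicates 1 and 3, with adjusted p from 0.0587 to 0.115 for Gbp4 and from 0.0524 to 0.193 for Gbp8. With only the 6 compared arrays Gbp4 (0.137), Gbp8 (0.194) and Gbp9 (0.0779) did not pass.

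Loss of 1 oxidase left the family no higher than wild type on average. In the IL4i1 knockout the differences from wild type were -1.49 for Gbp7 (SE 0.34, adjusted p = 0.406), -1.34 for Gbp2 (adjusted p = 0.655), -1.31 for Gbp3 (0.505), -1.02 for Gbp9 (SE 0.2, 0.239), -0.9 for Gbp4 (0.691) and -0.21 for Gbp8 (0.905). In limma's test 0 of 6 passed over all probes, where 0.0135% did. At an unadjusted p under 0.05, 4 of 6 stood lower, against 4.34% of all probes, and for 5 of 6 the arrays lay below those of wild type, against 5.16%. In the LAO1 knockout the differences were -1.41 for Gbp7, -1.39 for Gbp2, -0.77 for Gbp3, -0.59 for Gbp9 and -0.36 for Gbp4 (each adjusted p = 1), while Gbp8 was at 6.14 ± 0.08 against 6.15 ± 0.56 (SD, n = 3). Here too 0 of 6 passed limma's test, beside 0.0045% of all probes, and 4 of 6 stood lower at an unadjusted p under 0.05, against 1.57%. Gbp7 and Gbp9 lay below wild type on all arrays, 2 of 6 genes against 3.86% of all probes.

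The single knockouts were also set against each other. In no gene did they differ past the threshold (0 of 6 in limma's test, beside 0.0045% of all probes, and 0 at an unadjusted p under 0.05, beside 5.84%). Gbp3 alone lay lower on all IL4i1 knockout arrays, 1 of 6 genes against 5.44% of all probes. The log2 difference of the IL4i1 from the LAO1 knockout was -0.43 in Gbp9 (95% interval -0.87 to 0.01) and -0.54 in Gbp3 (-1.26 to 0.17). For Gbp2 the interval ran from -1.27 to 1.38 and for Gbp7 from -0.82 to 0.67. In order of level, then, the 2 single knockouts were not separated from each other or from wild type by the test over all probes. By the same test the DKO was separated from the IL4i1 knockout in 6 of 6 genes, from the LAO1 knockout in 3 and from wild type in 0.

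The interaction asked whether loss of 1 oxidase had the same effect with and without the other, as the DKO less both single knockouts plus wild type. It passed for 4 of 6 genes, against 0.207% of all probes called higher, and 6 of 6 were higher at an unadjusted p under 0.05, against 3.87%. The values were 5.79 for Gbp2 (SE 0.87, adjusted p = 0.0106), 4.62 for Gbp7 (SE 0.49, adjusted p = 0.00107), 4.08 for Gbp3 (SE 0.47, adjusted p = 0.00202) and 2.0 for Gbp9 (SE 0.29, adjusted p = 0.00798). Gbp4 at 3.24 (adjusted p = 0.15) and Gbp8 at 1.67 (0.291) did not pass, and Gbp4 did without DKO replicate 2 (3.88, adjusted p = 0.00902). For Gbp2, Gbp3, Gbp7 and Gbp9 the call held in all 17 alternatives tried, with adjusted p no higher than 0.041, 0.0119, 0.00627 and 0.0357. In Gbp9 the interaction drew on lower single knockouts (5.64 ± 0.29 and 5.2 ± 0.23) more than on the DKO. The DKO, at 6.62 ± 0.14, was close to wild type at 6.23 ± 0.09 (SD, n = 3). Lower single knockouts also entered the term of the other called genes. Gbp7 differed from wild type by -1.41 in the LAO1 knockout, -1.49 in the IL4i1 knockout and 1.72 in the DKO. In the same order Gbp3 differed by -0.77, -1.31 and 1.99, and Gbp2 by -1.39, -1.34 and 3.06. No difference from wild type passed the test over all probes.

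Between arrays of 1 genotype, 5 of the genes shared part of their deviations and Gbp9 shared little. DKO replicate 2 was the lowest DKO array in 6 of 6 genes, and DKO replicate 1 was the highest in 4 (Gbp2, Gbp3, Gbp4 and Gbp7). Wild type replicate 1 was the lowest wild type array in 5 of 6, and replicate 3 the highest in 4, while for Gbp9 replicate 3 was the lowest. Over 12 arrays the 15 pairs of genes had Pearson correlations from 0.72 (Gbp8 with Gbp9) to 0.97, with a median of 0.91, a figure that includes the differences between genotypes. For deviations from the genotype means the median was 0.68, with the highest, 0.86, for Gbp2 with Gbp3. Gbp9 had 0.01 with Gbp2, 0.06 with Gbp7, 0.23 with Gbp3, 0.28 with Gbp8 and 0.44 with Gbp4. These describe 12 arrays that share genotypes and a common processing.

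Position in the genome was not part of the choice of members. In the DKO against the IL4i1 knockout the median difference was 3.31 over the chromosome 3 genes and 1.66 over those of chromosome 5. The 12 nearest measured genes, 3 on each side of both clusters, lay between -0.5 and 0.74 in this comparison, and 0 of them passed in any of the 7 comparisons (3 at an unadjusted p under 0.05 in this one, beside 9.83% of all probes). Directly beside Gbp2 stood Kyat3, a kynurenine aminotransferase of tryptophan breakdown, at 0.21 (adjusted p = 0.855), and beside the chromosome 5 cluster Lrrc8b, a volume-regulated anion channel subunit, at 0.74 (adjusted p = 0.448). Probes of closely related family members may share signal, and their sequences were not used here.

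**Figure D3:**
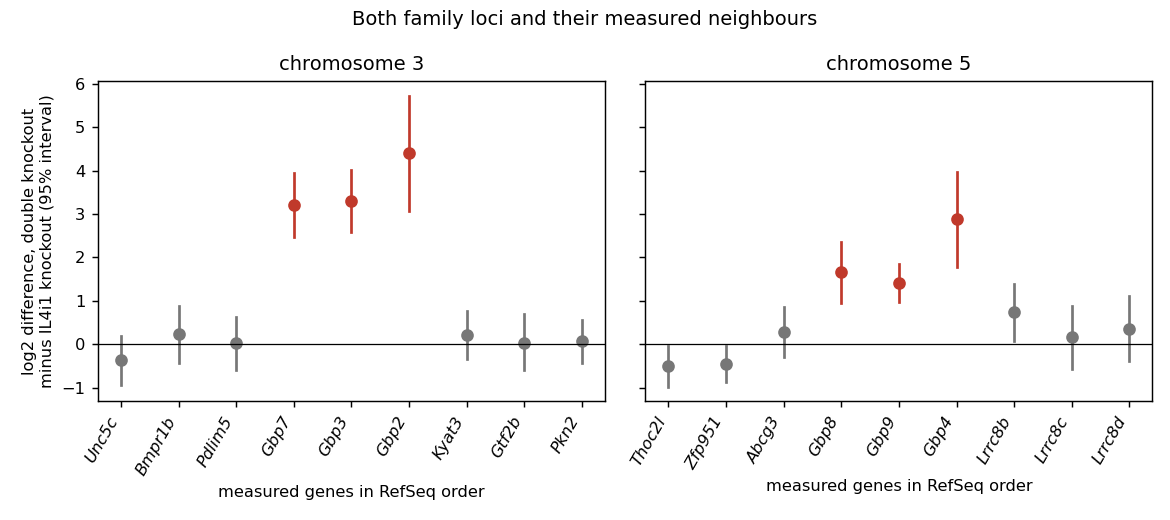
Log2 difference of the DKO from the IL4i1 knockout (vertical axis, with 95% intervals) for measured genes in RefSeq order around both clusters, family genes in red and neighbours in grey. The 6 family genes lie between 1.41 and 4.4, and the 12 neighbours between -0.5 and 0.74.

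Genes of interferon gamma signalling, which lies upstream of the family, were read from a list of 16, of which 14 were measured. In the DKO against the IL4i1 knockout 3 of 14 passed, all higher, beside 0.387% of all probes called higher. They were the transcription factor Irf1 (2.79, adjusted p = 0.00533), the feedback inhibitor Socs1 (1.7, 0.0158) and the signal transducer Stat2 (1.44, 0.018). Irf1 was at 13.84, 12.84 and 13.46 in the DKO, at 11.59, 10.78 and 12.39 in wild type, at 11.23, 11.82 and 10.72 in the LAO1 knockout, and at 10.39, 10.5 and 10.89 in the IL4i1 knockout. Its DKO arrays lay above all others, as those of the family did. In the interaction Irf1 (3.12, adjusted p = 0.0375) and Stat2 (1.94, 0.0382) passed, 2 of 14 beside 0.207% of all probes. In the DKO against wild type or the LAO1 knockout 0 of 14 passed limma's test. At an unadjusted p under 0.05, 7 were higher than in wild type (3.63% of all probes), and 8 were higher and 2 lower than in the LAO1 knockout (3.51% and 3.64%). By this measure 4 were lower and 1 higher in the IL4i1 knockout than in wild type (4.34% and 3.25%). Irf8, a factor of myeloid cells, differed from wild type by 1.24 in the DKO (adjusted p = 0.363).

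The ligand and its receptor fall outside the rule for named genes and were added after their values were seen. Ifng itself was dim, at 5.51, 4.34 and 4.77 in the DKO and between 3.4 and 4.62 on the other arrays, with differences of 0.91 from wild type (adjusted p = 0.504), 1.23 from the LAO1 knockout (0.217) and 0.58 from the IL4i1 knockout (0.544). DKO replicate 2 fell within the range of the other genotypes. The receptor chains Ifngr1 and Ifngr2 differed from wild type by 0.03 (adjusted p = 0.989) and -0.32 (0.789).

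Immunity-related GTPases, smaller interferon-induced relatives that work on the same vacuoles, were called in the same comparisons. Of 13 measured genes 7 rose in the DKO over the LAO1 knockout (0.122% of all probes did) and 8 over the IL4i1 knockout (0.387%). The interaction called 8 (0.207%). Against wild type 0 passed in limma's test, with 8 higher in the DKO at an unadjusted p under 0.05 (3.63% of all probes). By the same measure 11 of 13 were lower in the IL4i1 knockout than in wild type (4.34%) and 6 of 13 lower in the LAO1 knockout (1.57%). Among them, Irgm2 was at 11.74 ± 0.22 in the DKO and 6.64 ± 0.58 in the IL4i1 knockout (SD, n = 3), a difference of 5.1 (SE 0.52, adjusted p = 0.000701).

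Other parts of the guanylate-binding protein machinery were read from 4 lists. Of 14 genes of the caspase-11 and inflammasome pathway, into which these proteins feed, only the nucleic acid sensor Zbp1 passed, at 1.87 in the DKO against the IL4i1 knockout (adjusted p = 0.017), 1 of 14 beside 0.387% of all probes called higher. At an unadjusted p under 0.05, 4 of 14 were higher in the DKO than in either single knockout and 3 than in wild type, with 1 lower each time. The shares of all probes were 3.51% higher and 3.64% lower against the LAO1 knockout, 5.17% and 4.66% against the IL4i1 knockout, and 3.63% and 3.81% against wild type. Il1b, an inflammasome product, was at 10.79 in DKO replicate 1 and at 4.5 to 6.24 on the other arrays. Of 10 measured genes of vacuole tagging and ubiquitin 1 passed, the lectin Lgals9, at 2.78 in the DKO against the IL4i1 knockout (adjusted p = 0.000701) and at 3.38 in the interaction (adjusted p = 0.00242), where 0.387% and 0.207% of all probes were called higher. Of 9 enzymes of prenylation, which attach the lipid anchor of some family members, and of 12 autophagy genes used to load these GTPases onto vacuoles, 0 passed limma's test in any comparison. At an unadjusted p under 0.05 the highest count for prenylation was 3 of 9, all lower in the IL4i1 than in the LAO1 knockout (3.24% of all probes). For autophagy it was 2 of 12, 1 higher and 1 lower, for the DKO set against the LAO1 knockout (3.51% and 3.64%) and again for the IL4i1 knockout set against wild type (3.25% and 4.34%). Examples in the DKO against wild type were the farnesyltransferase subunit Fntb at -0.26 (adjusted p = 0.877) and the conjugation enzyme Atg3 at 0.37 (0.72).

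Of 11 measured dynamin-like GTPases outside the family, 2 passed, both in the DKO against the IL4i1 knockout. Gvin1, a very large interferon-induced GTPase, stood higher by 2.21 (adjusted p = 0.0315), beside 0.387% of all probes called higher. The difference was -1.22 for the neuronal dynamin Dnm1 (adjusted p = 0.0412), beside 0.0901% called lower. Its probe was dim, at 3.2 ± 0.27 in the DKO and 4.41 ± 0.23 in the IL4i1 knockout (SD, n = 3), where the 25th percentile of probe means was 3.76, so the size of this difference is uncertain. The median of this list was 0.09 there, beside 3.05 for the guanylate-binding proteins and -0.02 for all probes.

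Genes with a pattern like that of the family were sought among 19499 named genes outside it, by Pearson correlation over 12 arrays with the mean of the 6 centred genes. The 10 highest were Gm12250 (0.994), Tap1 (0.991), Tgtp2 (0.985), Igtp (0.985), Psmb8 (0.983), H2-Q4 (0.982), Gm4951 (0.978), Irgm1 (0.977), Iigp1 (0.97) and Gm4841 (0.966). On the list of immunity-related GTPases were 6 of them (Gm12250, Tgtp2, Igtp, Gm4951, Irgm1 and Iigp1). Tap1 is a peptide transporter, Psmb8 an immunoproteasome subunit and H2-Q4 a class I molecule. Over all genes the median correlation was -0.02, and 44 genes exceeded 0.9. By rank correlation 5 of the 10 remained among the first 10, and by deviations from the genotype means 4. These figures describe arrays that share 4 genotypes. Gm12250 was at 9.39, 7.89 and 8.97 in the DKO, at 4.77, 6.18 and 6.73 in wild type, and at 5.31, 4.41 and 4.08 in the LAO1 knockout. It was lowest in the IL4i1 knockout, at 3.86, 3.75 and 4.13. Its order of genotypes was that of 5 of the 6 family genes, but it was chosen by likeness on these same arrays.

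**Figure D4:**
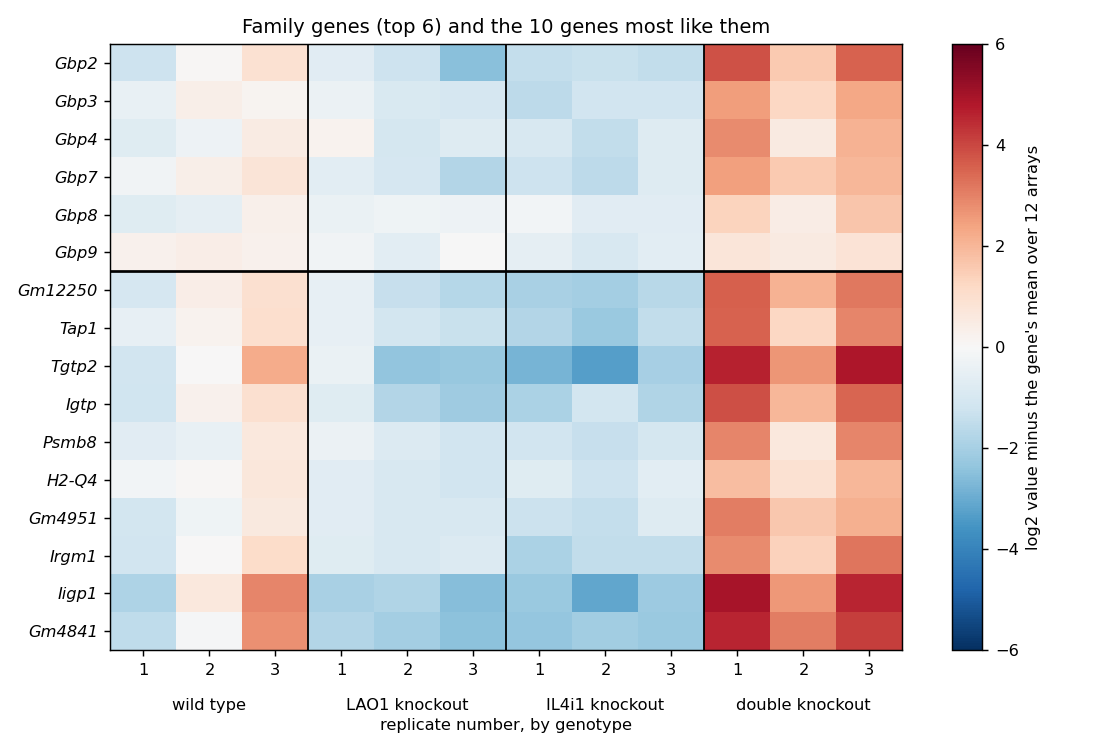
Log2 values less each gene's mean over 12 arrays (colour scale), for the 6 family genes above the line and the 10 most alike genes below it, with arrays in columns by genotype and replicate. DKO arrays are red throughout, and replicate 2 is the palest of the 3 in all 6 family genes.

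Levels of cell type markers were read beside these results. Of 13 measured T and NK cell genes 0 passed in any comparison, and their mean lay at 4.8 to 5.1 in the DKO and at 4.47 to 4.71 on all other arrays. In the DKO against wild type 3 of them were higher and 1 lower at an unadjusted p under 0.05 (3.63% and 3.81% of all probes). The smallest p-values there belonged to Gzma, a granzyme (1.54, adjusted p = 0.363), Nkg7, a cytotoxic granule protein (0.86, 0.461), and Cd3e, a T cell receptor chain (0.64, 0.612). The 1 lower gene was Ncr1 (-0.52, adjusted p = 0.661). Cd4, at 8.7 in the DKO and 9.07 in wild type, differed by -0.37 (0.804). Gzma was at 6.39, 5.27 and 7.19 in the DKO and at 4.98, 4.52 and 4.74 in wild type, without overlap, and reached 5.36 in the LAO1 knockout. Dim were Prf1, at 2.81 in the DKO and 2.78 in wild type, and Cd3g, at 3.86 and 3.89. Nkg7 was dim too, at 4.5 in the DKO and 3.64 in wild type, where the 25th percentile of probe means was 3.76. In wild type Gzma (4.75) and Cd3e (4.77) lay below the median of probe means, 5.46. At an unadjusted p under 0.05, 5 of 13 were higher and 1 lower in the DKO than in the LAO1 knockout (3.51% and 3.64% of all probes), and 3 were higher than in the IL4i1 knockout (5.17%). The mean of 12 macrophage, monocyte and dendritic cell genes was 6.05 to 6.64 in the DKO, 5.85 to 6.84 in wild type, 5.71 to 6.12 in the LAO1 knockout and 5.1 to 5.9 in the IL4i1 knockout, with 0 past the threshold and 6 lower in the IL4i1 knockout than in wild type at an unadjusted p under 0.05 (4.34% of all probes). By the same measure 3 were lower in the LAO1 knockout than in wild type (1.57%), 4 were higher in the DKO than in the IL4i1 knockout (5.17%), 1 was higher than in the LAO1 knockout (3.51%), 0 differed from wild type in the DKO, and 6 were higher in the interaction (3.87%). Neutrophil genes (8 measured) had means of 4.08 to 4.98 in the DKO and 3.94 to 4.46 elsewhere. The mean of 4.98 was that of DKO replicate 1, and the other DKO arrays lay within the range of the other genotypes. Means of 9 endothelial genes were 5.53 to 6.38 in the DKO and 6.11 to 6.66 in wild type, and those of 8 B and plasma cell genes 8.1 to 9.04 and 8.44 to 8.98. The part of these markers in the family's differences was not tested.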

How the data were processed

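RNA of colon was prepared with ISOGEN II and 6 µg of it labelled, per the labels' protocols, with biotin for Affymetrix arrays. The authors deposited log2 expression values, 22206 probes by 12 arrays, between 1.72 and 19.93, with array medians of 5.42 to 5.49. Transcriptome Analysis Console is the tool named in the submitters' processing notes. The summarisation, normalization and genome build are not given in the sources used here. Values were used as deposited. The number of arrays limits the precision.

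Names came from the platform annotation, with 19572 probes of 1 gene symbol and 2634 of none. Limma 3.58.1 in R 4.3.3 (lmFit, eBayes) was fitted to all 12 arrays with a mean per genotype, leaving 8 residual degrees of freedom. Two-sided p-values were adjusted by Benjamini-Hochberg over all probes, with a threshold of 0.05. The fit was tested on simulated data.

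The members and lists were chosen with earlier results of these data known. Named genes were the family, 3 genes per pathway list with the smallest p against wild type, any list gene past the threshold, and the 10 most alike genes. Ifng, its receptor genes, Prf1, Cd3g, Ncr1, Cd4, Cpa1, Kyat3 and Lrrc8b fall outside this rule and were named after their values were seen. Alternatives were median centring, quantile normalization, a filter at the 40th percentile, only the compared arrays, trend and robust options, a replicate block, and each array left out. Figures used matplotlib 3.10.9.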

Additional observations from a re-analysis of the deposited data

Results flagged for a closer look

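The effect of losing IL4i1 differed between mice with and without LAO1 for 4 genes, by the interaction term of the limma fit. The difference between effects was 5.79 for Gbp2, 4.62 for Gbp7, 4.08 for Gbp3 and 2.0 for Gbp9. Loss of IL4i1 shifted Gbp2 by -1.34 in mice with LAO1 and by 4.46 in mice without it. For Gbp7 these shifts were -1.49 and 3.14, for Gbp3 -1.31 and 2.76, and for Gbp9 -1.02 and 0.98. The shifts in mice with LAO1 did not pass the test over all probes, and that of Gbp9 in mice without LAO1 did not either (adjusted p = 0.115).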

How the results depend on the processing

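Of the family's counts and medians, 172 alternative values stayed within 1.5 times (counts) or 1 SD (medians) and 6 moved. The SD is that of the family mean within genotypes, 0.47. By this rule a count that fell from 6 to 4 or from 3 to 2 had not moved, nor had a count that stayed at 0. For the DKO against wild type the count of 0 family genes became 1 with trend and robust options and ran from 0 to 4 without 1 array. Against the LAO1 knockout the count of 3 ran from 2 to 5 and the median of 2.56 from 2.17 to 3.07. Against the IL4i1 knockout the count of 6 was 3 with only the compared arrays and 4 to 6 without 1 array. The interaction's median of 3.66 ran from 3.28 to 4.18. Signs turned for small differences: Gbp8 in the LAO1 knockout against wild type to 0.01 with median centring and to 0.31 and 0.04 without wild type replicate 3 or LAO1 knockout replicate 1, and in the IL4i1 knockout to 0.11 without wild type replicate 3. Between the single knockouts Gbp7 turned to 0.02 with quantile normalization and to 0.18 and 0.12 without LAO1 knockout replicate 1 or IL4i1 knockout replicate 2, and Gbp2 to -0.45 without LAO1 knockout replicate 3. Without 1 array these ran from -0.21 to 0.31, from -0.41 to 0.11, from -0.38 to 0.18 (Gbp7) and from -0.45 to 0.45 (Gbp2). The cause was not tested.

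Counts over all probes moved more. Against wild type the DKO had 5, with 2 from only the compared arrays, 11 with trend and robust options and 1 to 38 without 1 array. The LAO1 knockout had 1 (1 to 4) and the IL4i1 knockout 3 (8 with trend and robust options, 2 to 5). The DKO had 31 against the LAO1 knockout (11 to 68) and 106 against the IL4i1 knockout, with 33 from only the compared arrays and 46 to 174. The single knockouts differed by 1, with 2 after centring, 0 from only the compared arrays, 3 with trend and robust options and 0 to 4. Same-numbered arrays shared deviations weakly (-0.14 to 0.22, over 0.1 in 7 of 18 pairs), so the numbers were not taken as pairs. With the replicate block the family counts were 0, 0, 0, 3, 6, 0 and 4 in the 7 comparisons, and 166 probes passed in the DKO against the IL4i1 knockout and 3 between the single knockouts.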
